A study of Arabidopsis thaliana with 24 samples.

Results

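Nano-titania (TiO2) was set against its KCl control in the roots and the rosette leaves of thale cress (Arabidopsis thaliana), and the quantity described is the TiO2 effect in roots minus the TiO2 effect in leaves. The arrays were chosen by their labels, as all arrays of TiO2 and of KCl plants, which gave 12 of the 24 arrays of the study. They form 4 groups of 3 arrays: TiO2 roots, KCl roots, TiO2 leaves and KCl leaves. All plants were wild-type Columbia (Col-0), grown in potting medium and 29 days old when RNA was taken. TiO2 plants were watered with a suspension of 500 mg/L on days 0, 4 and 17, and KCl plants received the control solution on the same days. By the treatment protocol the TiO2 suspension was itself made up in KCl, so the particle is the intended difference within a tissue. The sample descriptions give no KCl concentration for TiO2 plants, so equal salt in both groups is not established. The KCl solution is given as 0.1 mM in the sample descriptions and as 0.1 M in the treatment protocol. The other 12 arrays, of plants given nano-ceria (CeO2, 500 mg/L) or millipore water, entered the estimate of the spread and are shown beside some results. Replicates are biological according to the labels, which say neither how many plants an array stands for nor whether root and leaf arrays of one number came from the same plants.

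Titania particles reach roots directly when a pot is watered, whereas leaves meet them only after uptake or through signals from the root. Roots take up water and minerals, make many of their own defence compounds and depend on sugar from the shoot. Leaves carry out photosynthesis and supply that sugar. A response to particles in the soil can therefore differ between these organs, and a test of the difference between the organs' effects asks which transcripts did so.

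Signals are on a log2 scale for 22746 probe sets, and the medians of the 12 arrays lay between 4.96 and 5.15. Pearson correlations between arrays of a group lay between 0.917 and 0.99. A lower quartile above 3.7, which marks a compressed range of values, was found on 4 arrays: replicate 2 of the TiO2 roots (3.78), replicates 1 and 3 of the KCl roots (3.90 and 3.74) and replicate 2 of the KCl leaves (3.75). Most tissue markers went with the labels. The median signal of 7 measured root markers, among them PYK10, a root beta-glucosidase, and jacalin lectins, was at least 6.99 on every root array and at most 5.55 on every leaf array. The median of 9 nuclear photosynthesis genes was at most 7.94 on root arrays and at least 12.38 on leaf arrays. EXPA7 and EXPA18, expansin genes of root hairs, stayed at 4.74 or below on every array, roots included. A signal from a whole organ does not tell fewer cells of a type from less RNA per cell. The p-values measure the spread between these arrays, and 3 arrays a group limit the precision.

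TiO2 was followed by different transcript changes in roots and in leaves for a small set of probe sets, which included a terpene synthase and a basic helix-loop-helix gene that fell in roots, a lipase gene that was higher in leaves, and a pair of DUF584 genes whose difference was positive. In limma's test of the difference itself, 47 of the 22746 probe sets passed at an adjusted p under 0.05 (0.207% of those tested). Of these, 21 had a more positive TiO2 effect in roots (0.0923%) and 26 a more negative one (0.114%). Their sizes began at 1.17 log2 units and reached 5.98 upwards and -4.21 downwards, whereas the median difference of all probe sets was -0.004. Within one tissue, 610 probe sets passed for TiO2 against KCl in roots (2.68%) and 47 in leaves (0.207%, with 0.0967% lower). The median standard error of the difference was 0.50 log2 units.

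The 47 probe sets fell into kinds by which tissue held the larger effect. In 26 the root effect was at least 2 times the leaf effect in size, and 14 of these had a negative difference. In 5 the leaf effect was at least 2 times the root effect. In 12 the effects had opposite signs and both exceeded 1 log2 unit, with 6 in each direction. The remaining 4 lay between these kinds. Counting any size, 32 of the 47 had opposite signs in the tissues. The root comparison alone also passed for 39 of the 47 and the leaf comparison for 5, while 3 passed for the difference only.

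TiO2 and KCl arrays did not overlap in roots for 43 of the 47 probe sets (15.3% of all probe sets) and in leaves for 26 (25.2% of all). Measured from the average of the CeO2 and water groups, KCl stood farther off than TiO2 for 33 of the 47 in roots, against 62.5% of all probe sets, and for 22 of the 47 in leaves, against 45.9% of all. The part of the KCl arrays in these differences was not tested. TiO2 and KCl arrays separated in both tissues and in opposite directions for 17 of the 47, and for 1.1% of all probe sets. The 47 were chosen by the difference between the tissues, so separation and opposite directions follow in part from that choice. These counts are no further evidence for the difference.

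**Figure D1:**
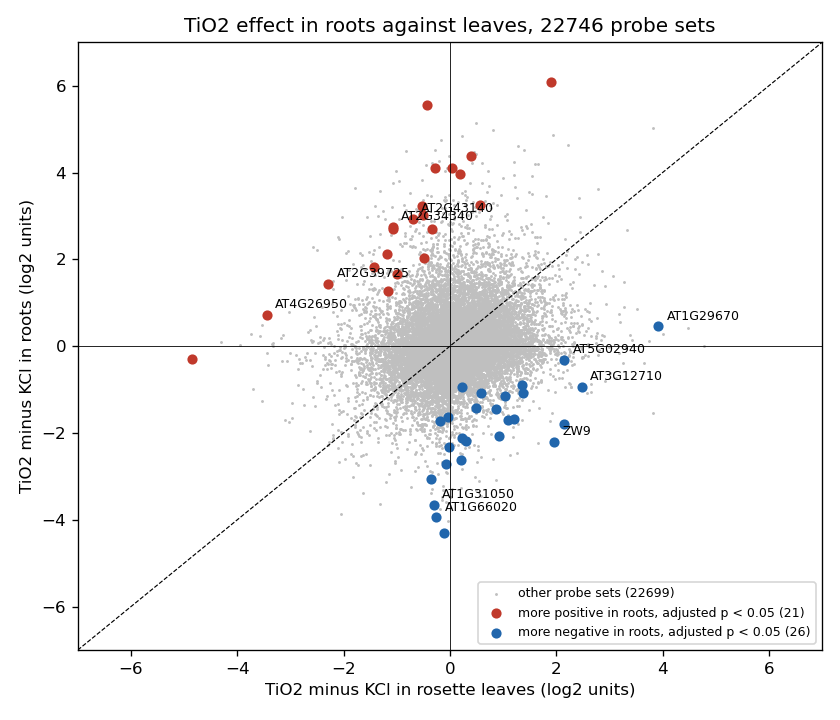
TiO2 minus KCl in rosette leaves (horizontal axis) against TiO2 minus KCl in roots (vertical axis), both in log2 units, with 1 point for each of 22746 probe sets and a dashed line where both effects are equal. The 21 probe sets with a more positive effect in roots lie above the line and the 26 with a more negative one below it; in 26 of the 47 the root effect is at least 2 times the leaf effect in size.

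The number of calls for the TiO2 effect in roots minus TiO2 effect in leaves depended on single arrays. With 1 array left out it was 18, 201 and 3 without TiO2 roots 1, 2 and 3, and 62, 22 and 24 without KCl roots 1, 2 and 3. It was 148, 2 and 2 without TiO2 leaves 1, 2 and 3, and 23, 36 and 9 without KCl leaves 1, 2 and 3. The count for roots alone moved between 114 and 1077 and that for leaves alone between 1 and 376. Of the 47 probe sets, 22 point to a single named gene, 8 with a positive and 14 with a negative difference. The other 25 have no single gene in the annotation used here.

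The clearest negative difference was that of AT1G66020 on chromosome 1 (24577544 to 24580185, TAIR10.1), a member of the terpene synthase family, whose enzymes make volatile and defensive terpenoids. Its log2 signal was 4.35, 5.42 and 4.41 in TiO2 roots, against 7.99, 8.95 and 9.06 in KCl roots. In leaves it was 3.21, 3.28 and 2.98 with TiO2 and 3.37, 3.53 and 3.33 with KCl. All TiO2 root arrays lay more than 2 units below all KCl root arrays. The leaf arrays of both groups sat near the bottom of the scale, where a fall could hardly show. The TiO2 effect was -3.94 ± 0.33 in roots and -0.25 ± 0.33 in leaves (SE, n = 3 arrays a group). Here and below the SE of an effect comes from a spread shared by all 8 groups, so it is equal in both tissues. The difference was -3.69 ± 0.47 (95% interval -4.67 to -2.70, limma adjusted p = 0.00639). CeO2 roots averaged 7.68 ± 0.66 and water roots 6.02 ± 0.12 (SD, n = 3), so the TiO2 roots were the lowest and the KCl roots the highest of the 4 root groups. The call held in all 12 fits with 1 array left out.

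AT1G31050, a basic helix-loop-helix transcription factor gene on chromosome 1 (11075398 to 11079289), had the same pattern. It measured 3.69, 4.10 and 3.59 in TiO2 roots, against 7.04, 7.05 and 8.25 in KCl roots. TiO2 leaves gave 3.22, 3.31 and 3.21, and KCl leaves 3.39, 3.86 and 3.38. The root groups did not overlap, and the leaf groups differed by 0.30 units in their means. Leaf signals were again near the bottom of the scale, so a fall in leaves could hardly show. The root effect was -3.65 ± 0.35, and the difference was -3.35 ± 0.50 (interval -4.39 to -2.31, adjusted p = 0.0174). Here the KCl roots stood apart, since CeO2 roots averaged 4.69 and water roots 4.25. The call held in 9 of the 12 fits with 1 array left out.

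ZW9 (AT1G58270, chromosome 1, 21611803 to 21614169), a TRAF-like gene of no settled function, moved in opposite directions. Its signal was 7.85, 7.01 and 6.64 in TiO2 roots, against 9.83, 9.25 and 9.03 in KCl roots. It was 6.01, 6.78 and 6.74 in TiO2 leaves, against 4.70, 4.32 and 4.61 in KCl leaves. TiO2 arrays were below all KCl arrays in roots and above all of them in leaves. The effect was -2.20 ± 0.40 in roots (adjusted p = 0.00707) and 1.97 ± 0.40 in leaves (adjusted p = 0.0512), which gave a difference of -4.17 ± 0.57 (interval -5.36 to -2.97, adjusted p = 0.00863). CeO2 and water leaves both averaged 7.29, above the TiO2 leaves (6.51) and the KCl leaves (4.54). The call held in all 12 fits with 1 array left out.

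AT1G29670, a GDSL-type lipase gene on chromosome 1 (10375599 to 10377871), differed through the leaves. TiO2 roots gave 3.89, 3.97 and 3.46 and KCl roots 3.18, 3.35 and 3.42. TiO2 leaves gave 10.02, 11.03 and 10.72, against 6.84, 6.64 and 6.54 in KCl leaves. Signals in roots were low in both groups, and the TiO2 leaves lay more than 3 units above the KCl leaves. The leaf effect was 3.92 ± 0.37 (adjusted p = 7.79e-05), the root effect 0.46 ± 0.37 and the difference -3.46 ± 0.53 (interval -4.56 to -2.35, adjusted p = 0.0183). CeO2 leaves averaged 9.23 and water leaves 9.94, so among leaves the KCl group was the low one. AT5G02940, of a plastid envelope ion channel family, had the same form, with a leaf effect of 2.15 ± 0.32, a root effect of -0.32 ± 0.32 and a difference of -2.47 ± 0.45 (adjusted p = 0.0387). Its CeO2 and water leaves averaged 6.37 and 6.87, near the TiO2 leaves at 6.82 and above the KCl leaves at 4.67. AT3G12710, of the DNA glycosylase superfamily, had a leaf effect of 2.48 ± 0.48 and a root effect of -0.93 ± 0.48 (difference -3.41 ± 0.68, adjusted p = 0.0461).

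A further group of genes had opposite effects, lower in TiO2 roots than in KCl roots and higher in TiO2 leaves than in KCl leaves. AT5G14210, a leucine-rich repeat receptor kinase gene, measured 5.98, 5.60 and 5.55 in TiO2 roots, against 6.54, 7.26 and 6.75 in KCl roots. In leaves it measured 5.67, 6.05 and 5.74 with TiO2, against 4.73, 4.41 and 5.21 with KCl. Neither pair of groups overlapped. The effect was -1.14 ± 0.26 in roots and 1.04 ± 0.26 in leaves, and the difference was -2.18 ± 0.36 (adjusted p = 0.0316, held in 9 of 12 fits with 1 array left out). AT2G36430, of the DUF247 family, measured 4.89, 4.77 and 4.79 in TiO2 roots, against 6.68, 6.64 and 6.25 in KCl roots. It measured 7.52, 8.45 and 8.26 in TiO2 leaves and 6.79, 7.75 and 6.41 in KCl leaves, where the groups overlapped. Its difference was -2.80 ± 0.49 (adjusted p = 0.0362). AT3G56480 had effects of -1.69 ± 0.41 in roots and 1.21 ± 0.41 in leaves and a difference of -2.90 ± 0.57 (adjusted p = 0.046).

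The remaining named genes with a negative difference fell in roots and had a small leaf effect. AT1G33440 (NPF4.4), of the nitrate and peptide transporter family, measured 3.35, 4.46 and 3.58 in TiO2 roots, against 5.81, 5.45 and 6.46 in KCl roots. Its leaf signals lay between 3.04 and 3.57 on all 6 arrays, near the bottom of the scale, where a fall could hardly show. The root groups did not overlap and the difference was -2.33 ± 0.44 (adjusted p = 0.0412). AT5G01090, of the legume-type lectin family, measured 6.60, 6.40 and 6.60 in TiO2 roots, against 8.16, 8.40 and 9.61 in KCl roots, with a leaf effect of 0.30 ± 0.35 and a difference of -2.49 ± 0.50 (adjusted p = 0.0461). AT5G48360, of the formin family, which nucleates actin filaments, had a root effect of -1.43 ± 0.27 and a difference of -1.93 ± 0.39 (adjusted p = 0.0461). AT1G48690, of the GH3 family, whose better known members conjugate auxin to amino acids, and AT5G35400, of the pseudouridine synthase family, were the other 2 named genes below, with differences of -1.59 and -1.17. All 14 named genes with a negative difference had a negative root effect except AT1G29670. With 1 array left out, AT1G29670 passed in 9 of 12 fits, and AT2G36430, AT5G02940 and AT3G56480 in 5. AT1G33440, AT5G01090 and AT3G12710 passed in 4 and AT5G48360 in 2.

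**Figure D2:**
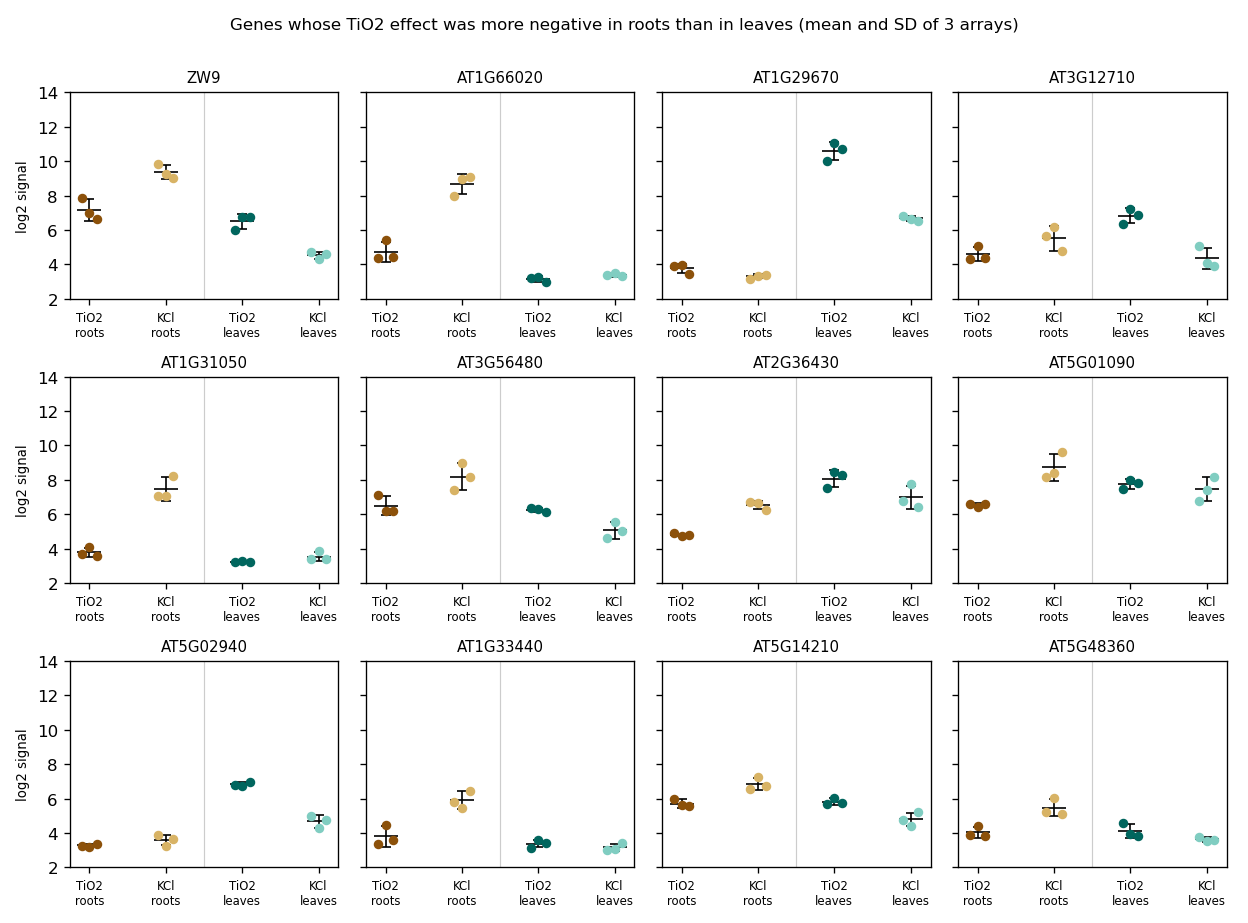
Log2 signal of the 12 genes with the largest passing negative differences, with 1 point per array, the mean as a horizontal line and the SD as a bar (n = 3), for TiO2 roots, KCl roots, TiO2 leaves and KCl leaves. In AT1G66020 and AT1G31050 only the KCl roots are high; in AT1G29670 and AT5G02940 the leaf groups separate; in ZW9 the order of TiO2 and KCl is reversed between roots and leaves.

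On the positive side the 8 named genes included a pair of DUF584 family genes, related to S40 genes that are known for their induction in senescing leaves. AT4G26950 (chromosome 4, 13533391 to 13534498) measured 2.94, 3.03 and 5.52 in TiO2 roots and 3.41, 2.81 and 3.11 in KCl roots. It measured 3.51, 3.49 and 3.56 in TiO2 leaves, against 7.17, 6.45 and 7.29 in KCl leaves. The root groups overlapped, with replicate 3 of the TiO2 roots high, and the leaf groups were far apart. The leaf effect was -3.45 ± 0.50 (adjusted p = 0.00674), the root effect 0.72 ± 0.50 and the difference 4.17 ± 0.71 (interval 2.67 to 5.66, adjusted p = 0.0332, held in 7 of 12 fits with 1 array left out). CeO2 and water leaves averaged 3.87 and 3.89, so the KCl leaves were the high group.

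The second of the pair, AT2G34340 (chromosome 2, 14488584 to 14489767), differed mostly through roots. It measured 6.78, 7.46 and 9.78 in TiO2 roots, against 5.64, 4.52 and 5.61 in KCl roots. TiO2 leaves gave 5.09, 5.42 and 5.26 and KCl leaves 5.67, 6.54 and 6.80. TiO2 arrays were above all KCl arrays in roots and below all of them in leaves. The effect was 2.75 ± 0.53 in roots and -1.08 ± 0.53 in leaves, and the difference was 3.83 ± 0.74 (interval 2.27 to 5.39, adjusted p = 0.0412). CeO2 roots averaged 6.11 and water roots 7.63.

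AT2G43140, another basic helix-loop-helix gene (chromosome 2, 17931254 to 17935748), rose in roots. It measured 8.08, 6.63 and 7.66 in TiO2 roots, against 5.63, 4.24 and 3.72 in KCl roots. TiO2 leaves gave 4.28, 3.37 and 3.71 and KCl leaves 4.97, 4.29 and 4.20. The root groups did not overlap and the leaf groups did. The root effect was 2.93 ± 0.46 (adjusted p = 0.00275), the leaf effect -0.70 ± 0.46 and the difference 3.63 ± 0.65 (interval 2.25 to 5.0, adjusted p = 0.0387). AT5G51680, AT3G07565 and AT3G19920 had the same form. AT5G51680 had a root effect of 3.01 ± 0.48 and a difference of 3.52 ± 0.68 (adjusted p = 0.0412). AT3G07565 had a root effect of 2.71 ± 0.43 and a difference of 3.04 ± 0.61 (adjusted p = 0.0461), and AT3G19920 had 2.03 ± 0.33 and 2.51 ± 0.47 (adjusted p = 0.0412). In all 3 the TiO2 root arrays lay above every KCl root array, and the leaf effect lay between -0.51 and -0.33.

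AT2G39725, of the LYR family, whose members serve mitochondrial assembly, had effects of opposite sign. It measured 8.60, 7.46 and 9.48 in TiO2 roots, against 7.14, 7.10 and 6.99 in KCl roots. It measured 6.22, 5.89 and 6.10 in TiO2 leaves, against 7.55, 8.01 and 9.51 in KCl leaves. The groups did not overlap in either tissue, and the difference was 3.73 ± 0.67 (interval 2.32 to 5.13, adjusted p = 0.0387). Neither tissue alone passed, at adjusted p = 0.119 in roots and 0.052 in leaves. AT4G19200, a proline-rich protein gene with strong signals throughout, averaged 12.48 ± 0.26 in TiO2 roots, 11.21 ± 0.50 in KCl roots, 11.18 ± 0.45 in TiO2 leaves and 12.34 ± 0.38 in KCl leaves (SD, n = 3). Its difference was 2.43 ± 0.47 (adjusted p = 0.0412). CeO2 and water roots averaged 12.50 and 12.62, above the KCl roots. With 1 array left out, the 8 named genes on the positive side passed in 3 to 7 of 12 fits.

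**Figure D3:**
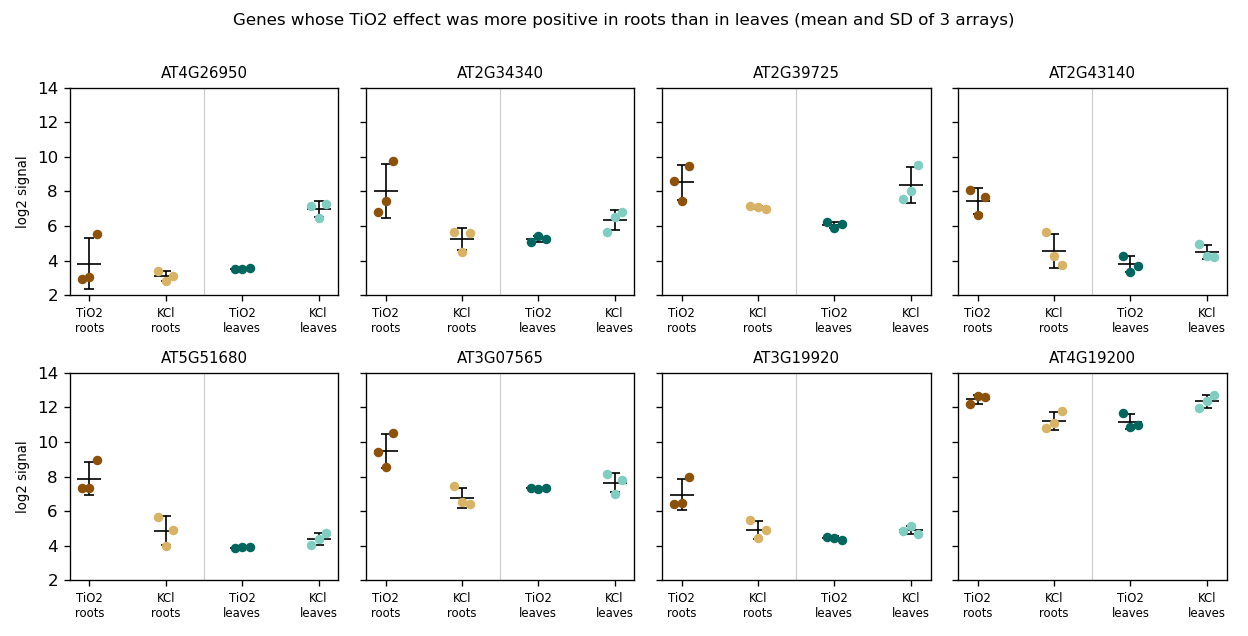
Log2 signal of the 8 named genes with a passing positive difference, with 1 point per array, the mean as a horizontal line and the SD as a bar (n = 3), for TiO2 roots, KCl roots, TiO2 leaves and KCl leaves. TiO2 roots stand above KCl roots in all but AT4G26950, where only the KCl leaves are high.

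Some of the largest differences belong to probe sets without a named gene, picked here after their values were seen. Probe set 250662_at measured 12.69, 11.78 and 12.44 in TiO2 roots, against 6.68, 6.81 and 6.77 in KCl roots. TiO2 leaves gave 4.45, 4.80 and 4.86 and KCl leaves 4.87, 4.21 and 6.32. Its difference of 5.98 ± 1.08 (adjusted p = 0.0387) came from a root effect of 5.55 ± 0.77, with no overlap between the root groups. Probe set 248918_at was the leaf counterpart, with 4.02, 2.94 and 3.20 in TiO2 leaves, against 9.58, 6.06 and 9.05 in KCl leaves. All of its root arrays lay between 3.00 and 3.58, where a fall could hardly show, and its difference was 4.55 ± 0.89. Probe set 255812_at resembled AT1G31050, with a root effect of -4.31 ± 0.46, a leaf effect of -0.11 ± 0.46 and a difference of -4.21 ± 0.65. Probe set 257137_at had effects of -1.79 ± 0.47 in roots and 2.14 ± 0.47 in leaves and a difference of -3.94 ± 0.67. With 1 array left out, 255812_at passed in 9 of 12 fits, 257137_at in 5, 250662_at in 4 and 248918_at in 3.

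The DUF584 and terpene synthase families were looked at as wholes because a member had passed, so their lists were chosen after values were seen. Of 14 DUF584 genes, 12 were measured. Of these 10 had a difference above 0 and 2 passed, AT4G26950 and AT2G34340 (0.0923% of all probe sets passed higher). These 2 led to the choice of the family and are included in its counts and median. The family median was 1.59 against -0.004 for all probe sets. The median effect of the 12 was -0.07 in roots and -1.13 in leaves. AtS40-3, which did not pass, measured 5.49, 3.43 and 4.15 in TiO2 leaves, against 5.84, 8.09 and 9.09 in KCl leaves, and had a difference of 3.32 ± 1.25. AT5G45630 had a difference of 3.49 ± 0.98. The DUF584 genes did not move as 1 block, since AT5G03230 and AT3G45210 had differences of -0.02 and 0.01.

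Of 23 terpene synthase genes 17 were measured, 9 with a difference below 0. AT1G66020, which led to the choice of the family, was the only member to pass (0.114% of all probe sets passed lower). The family median was -0.13, and 0.06 when arrays were centred on their medians. In roots alone 3 members fell (1.43% of all probe sets fell): AT1G66020, AT4G20230 and AT3G29410. AT4G20230 measured 5.30, 5.86 and 4.28 in TiO2 roots, against 7.35, 8.97 and 7.98 in KCl roots, with a root effect of -2.95 ± 0.42 and a difference of -2.72 ± 0.60. AT3G29410 measured 3.47, 3.51 and 3.57 in TiO2 roots, against 8.23, 5.12 and 5.20 in KCl roots. Its root effect was -2.67 ± 0.68 and its difference -2.52 ± 0.96. Neither difference passed. In leaves 14 of the 17 measured terpene synthase genes had an effect below 0 and none passed. Their median leaf effect was -0.12, against -0.07 for all probe sets. The list's median signal was near the bottom of the scale. It was 3.23, 3.25 and 3.14 in TiO2 leaves and 3.32, 3.44 and 3.21 in KCl leaves. Roots gave 3.35, 3.43 and 3.23 with TiO2 and 3.68, 3.33 and 3.50 with KCl. The sign counts and the family median therefore rest largely on genes with little signal.

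The heat shock list and the lists after it were chosen with earlier results of these data known. Their counts are therefore no independent support for a difference. Heat shock proteins are chaperones that keep other proteins folded. All 11 measured members had a difference above 0, with a median of 2.22 log2 units against -0.004 for all probe sets. The median effect was 2.05 in roots and -0.10 in leaves. None passed limma's test of the difference, and 6 of 11 had an unadjusted p under 0.05 (11.2% of all probe sets). In roots 3 rose (1.25% of all probe sets rose). The median signal of the list was 6.50, 6.73 and 8.20 in TiO2 roots, against 4.34, 4.18 and 3.87 in KCl roots. It was 4.97, 3.99 and 4.58 in TiO2 leaves and 4.60, 4.18 and 5.38 in KCl leaves. TiO2 root arrays were above every KCl root array, and the leaf groups overlapped.

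AT1G53540, a small heat shock protein gene, measured 7.23, 6.73 and 9.90 in TiO2 roots, against 3.94, 3.60 and 3.66 in KCl roots. Leaves gave 4.14, 3.17 and 3.36 with TiO2 and 3.85, 3.73 and 4.11 with KCl. It rose in roots by 4.22 ± 0.98 (adjusted p = 0.0279), and its difference was 4.56 ± 1.39 (interval 1.64 to 7.48, adjusted p = 0.186). AT5G48570 (ROF2), an immunophilin co-chaperone, measured 7.99, 6.88 and 8.09 in TiO2 roots, against 3.78, 4.19 and 2.89 in KCl roots. It rose in roots by 4.03 ± 0.73 and had a difference of 3.32 ± 1.03 (adjusted p = 0.192). Hop3, an organising co-chaperone, was the third to rise in roots, by 2.03 ± 0.51. AT5G37670, a small heat shock protein gene, had effects of 0.42 ± 0.59 in roots and -2.07 ± 0.59 in leaves, with 5.47, 4.99 and 5.31 in TiO2 leaves, against 6.69, 7.29 and 8.01 in KCl leaves, and a difference of 2.50 ± 0.83 that did not pass.

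The cold and abscisic acid genes encode late embryogenesis abundant and cold-regulated proteins that protect cells short of water. Of 35 on the list 6 were measured, 5 with a difference above 0, and the median was 2.42, or 1.48 without replicate 1 of the TiO2 leaves. The median effect was 2.83 in roots and 0.57 in leaves. The list's median signal was 8.84, 7.84 and 9.53 in TiO2 roots and 5.68, 4.73 and 4.85 in KCl roots. Water roots gave 6.26, 5.01 and 7.75 and CeO2 roots 7.32, 7.36 and 4.89. None passed for the difference, and 2 of 6 had an unadjusted p under 0.05 (11.2% of all probe sets). In roots COR47, LTI30 and COR15A rose, 3 of 6 against 1.25% of all. COR47, a dehydrin, measured 13.62, 11.79 and 12.85 in TiO2 roots, against 10.77, 9.61 and 8.97 in KCl roots. TiO2 leaves gave 11.11, 11.19 and 11.08 and KCl leaves 11.66, 10.35 and 11.63. The root groups did not overlap and the leaf groups did, and the difference was 3.06 ± 0.94 (adjusted p = 0.186). LEA4-5 had a difference of 3.78 ± 1.16 (adjusted p = 0.189). COR15A measured 9.62, 8.13 and 9.68 in TiO2 roots, against 4.44, 4.34 and 4.76 in KCl roots, and 7.68, 12.34 and 12.10 in TiO2 leaves, where replicate 1 stood 4 units below the others.

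Breakdown of branched-chain amino acids gives plants an energy source when sugar is short. The list joins genes of this breakdown with carbon starvation genes such as PPDK, and its counts do not separate them. All 6 measured of 14 genes had a difference above 0, with a median of 1.87 and median effects of 2.0 in roots and 0.11 in leaves. The list's median signal was 8.27, 6.78 and 8.21 in TiO2 roots and 5.22, 5.34 and 5.25 in KCl roots. Water roots gave 6.26, 6.11 and 6.48 and CeO2 roots 5.77, 6.04 and 8.13, so the KCl roots were the lowest root group. None passed for the difference, and 4 of 6 had an unadjusted p under 0.05 (11.2% of all probe sets). In roots MCCA, PPDK and ETFQO rose, 3 of 6 against 1.25% of all. MCCA, a subunit of methylcrotonyl-CoA carboxylase in leucine breakdown, measured 9.21, 7.89 and 8.74 in TiO2 roots, against 6.02, 5.89 and 5.77 in KCl roots. TiO2 leaves gave 6.54, 6.54 and 6.55 and KCl leaves 7.20, 5.58 and 5.85. Its difference was 2.39 ± 0.71 (interval 0.90 to 3.88, adjusted p = 0.169). PPDK, pyruvate orthophosphate dikinase, measured 9.22, 8.08 and 9.17 in TiO2 roots, against 5.56, 4.55 and 6.22 in KCl roots. Its leaf groups averaged 9.33 and 9.45, and its difference was 3.50 ± 1.21 (adjusted p = 0.253).

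**Figure D4:**
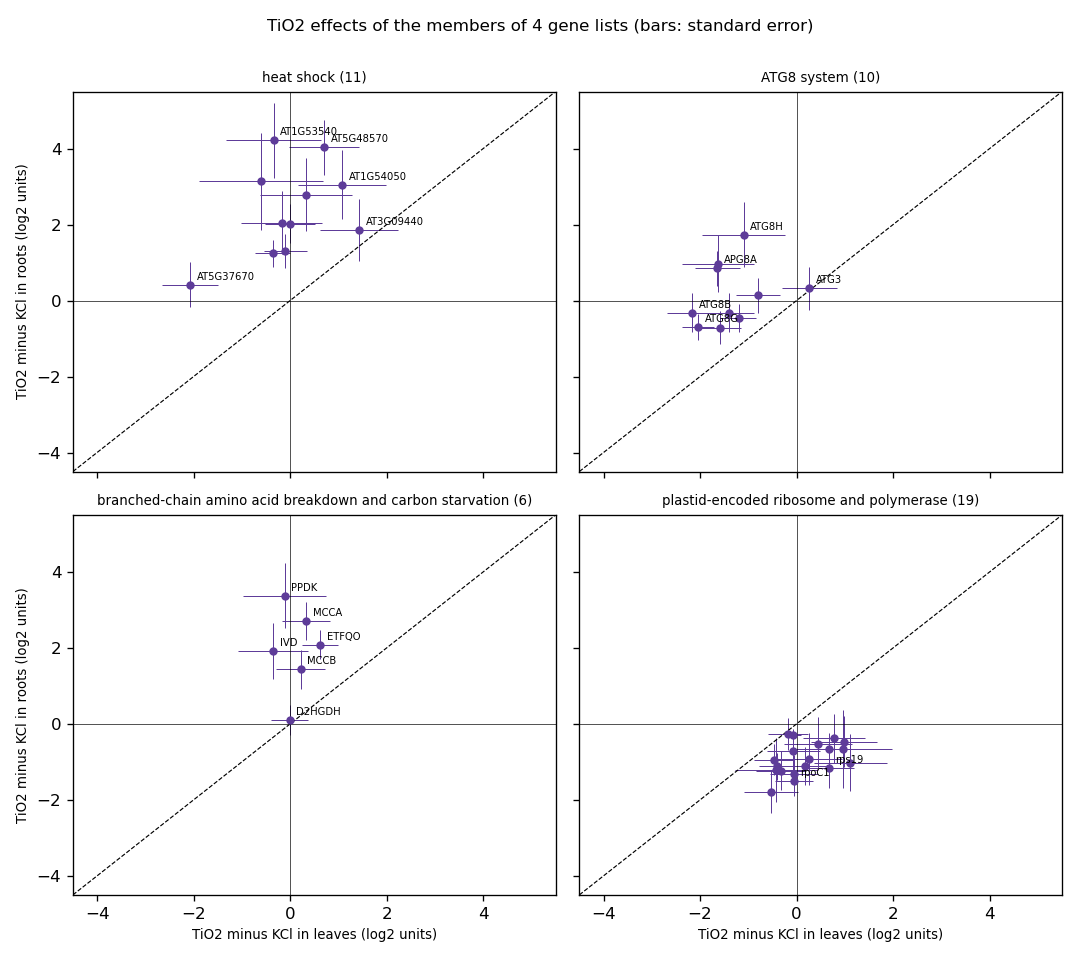
TiO2 minus KCl in leaves (horizontal axis) against TiO2 minus KCl in roots (vertical axis), in log2 units with standard errors as bars, for the measured members of 4 lists; on the dashed line both effects are equal. Genes of the heat shock list and of the branched-chain amino acid breakdown and carbon starvation list spread upwards along the vertical axis. The ATG8 genes other than ATG3 lie to the left of it, and the 19 plastid-encoded ribosome and polymerase genes lie below the line.

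The ATG8 proteins are joined to the autophagosome membrane during autophagy. All 10 measured genes of this list, which includes ATG3, the enzyme that joins ATG8 to lipid, had a difference above 0, with a median of 1.21. The median effect was -0.09 in roots and -1.49 in leaves. None passed for the difference, and 5 of 10 had an unadjusted p under 0.05 for it, against 11.2% of all probe sets. For leaves alone 7 of 10 had an unadjusted p under 0.05 (12.9% of all probe sets) and 1 passed. ATG8G measured 7.33, 7.03 and 7.59 in TiO2 roots and 7.72, 8.06 and 8.23 in KCl roots. It measured 6.88, 6.66 and 6.80 in TiO2 leaves, against 8.53, 8.76 and 9.17 in KCl leaves, and fell in leaves by 2.04 ± 0.34 (adjusted p = 0.0177). Its difference was 1.35 ± 0.48 (adjusted p = 0.263). APG8A, another ATG8 gene, had effects of 0.85 ± 0.47 in roots and -1.64 ± 0.47 in leaves and a difference of 2.49 ± 0.66 (adjusted p = 0.133). The list's median signal was 8.72, 8.63 and 8.83 in TiO2 leaves, against 9.68, 10.29 and 10.75 in KCl leaves, with CeO2 and water leaves between 8.76 and 10.03.

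Anthocyanin and flavonoid genes make pigments of stressed leaves. Of 18 genes 6 were measured and 5 had a difference above 0. The median difference was 2.08, or 1.33 without replicate 1 of the KCl leaves, and the median effects were 0.04 in roots and -2.22 in leaves. The list's median signal was 6.89, 4.49 and 5.77 in TiO2 leaves and 9.55, 6.29 and 7.85 in KCl leaves, which overlap. Water leaves gave 5.28, 4.14 and 4.58 and CeO2 leaves 4.27, 4.63 and 5.94, so among leaves the KCl group was the high one. None passed for the difference, and 3 of 6 had an unadjusted p under 0.05 (11.2% of all probe sets). AT4G14090, an anthocyanidin glucosyltransferase gene, measured 5.84, 4.29 and 4.68 in TiO2 leaves, against 9.77, 6.05 and 6.82 in KCl leaves, while all its root arrays lay between 4.30 and 4.71. Its difference was 2.75 ± 0.86 (adjusted p = 0.197). AT5MAT, an anthocyanin malonyltransferase, had a difference of 1.77 ± 0.58 (adjusted p = 0.224). PDF1.2, a plant defensin gene and the single measured gene of the defence and jasmonate list, had effects of -0.16 ± 0.74 in roots and -2.69 ± 0.74 in leaves (difference 2.53 ± 1.04, adjusted p = 0.354).

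**Figure D5:**
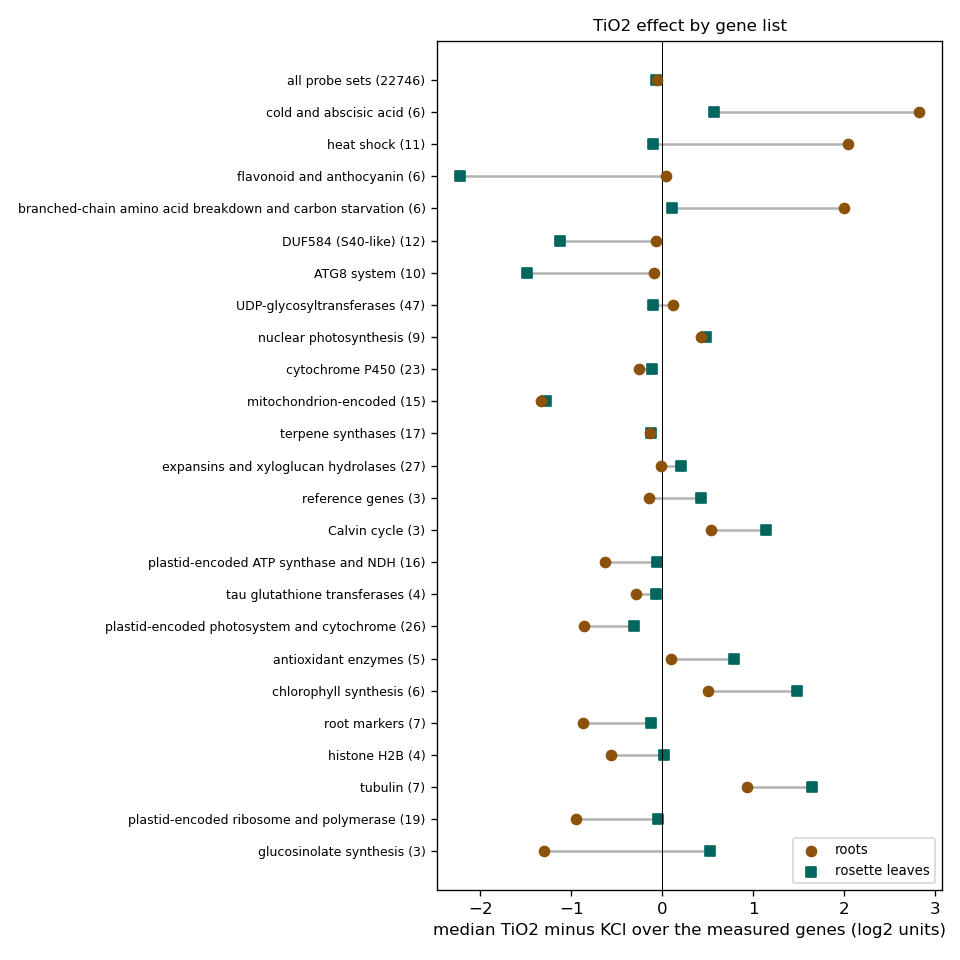
Median TiO2 minus KCl, in log2 units, of the measured members of each gene list with at least 3 of them (number in brackets), in roots (circles) and in leaves (squares), ordered by the median difference, with all 22746 probe sets at the top. The heat shock list, the cold list and the branched-chain amino acid breakdown and carbon starvation list have their gap on the root side. The flavonoid, ATG8 and DUF584 lists have it on the leaf side.

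Plastids carry a small genome that encodes parts of their own ribosome, polymerase and photosynthetic complexes. All 19 measured plastid genes for ribosome and polymerase subunits had a difference below 0, with a median of -1.18, or -0.70 without replicate 2 of the TiO2 roots. Their median effect was -0.94 in roots and -0.05 in leaves. When arrays were centred on their medians or quantile-normalized again 18 of the 19 stayed below 0. None passed for the difference or in roots, and 3 of 19 had an unadjusted p under 0.05 for the difference (11.2% of all probe sets). The list's median signal was 7.62, 6.33 and 6.33 in TiO2 roots and 7.42, 7.75 and 8.15 in KCl roots, where replicate 1 of the TiO2 roots overlapped the KCl range. Water roots lay lower, at 6.18, 4.86 and 5.87. The gene rpoC1, for a polymerase subunit, had effects of -1.50 ± 0.40 in roots and -0.05 ± 0.40 in leaves (difference -1.44 ± 0.57, adjusted p = 0.328).

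Of 26 plastid genes for photosystem and cytochrome subunits 21 had a difference below 0 (median -0.77), and of 16 for the ATP synthase and NDH complex 14 did (median -0.69). None of either list passed for the difference, and 3 of 26 and 1 of 16 had an unadjusted p under 0.05, which is near or below the 11.2% of all probe sets. These medians were -0.45 and -0.39 without replicate 3 of the KCl roots, and the second was -0.22 without replicate 2 of the TiO2 roots. The gene atpH, for a ring subunit of the ATP synthase, fell in roots by 1.96 ± 0.43 (adjusted p = 0.0201) and had a difference of -1.43 ± 0.60 (adjusted p = 0.366). The gene petA, for cytochrome f, had a difference of -1.55 ± 0.63 (adjusted p = 0.343). The 15 mitochondrion-encoded genes were unlike these, with median effects of -1.33 in roots and -1.27 in leaves and a median difference of -0.13, which changed sign with single arrays left out (-0.54 without replicate 2 and 0.30 without replicate 1 of the TiO2 roots).

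Nuclear genes of photosynthesis were split. Of 9 measured antenna and photosystem genes 5 had a difference above 0, with a median of 0.15 that became -0.65 without replicate 2 of the KCl roots and 0.94 without replicate 3 of the KCl roots. PSAN, a photosystem I subunit, and LHCB4.3, an antenna protein, had differences of 1.81 ± 0.96 and -1.35 ± 0.86. Chlorophyll synthesis genes had medians above 0 in both tissues, 0.50 in roots and 1.48 in leaves, and 5 of 6 had a difference below 0 (median -0.90). HEME1, a uroporphyrinogen decarboxylase, measured 7.19, 8.45 and 8.03 in TiO2 leaves, against 6.41, 6.29 and 5.77 in KCl leaves, and had a difference of -1.34 ± 0.67. CHLM, of the magnesium branch, had a difference of -1.26 ± 0.73. The 3 measured Calvin cycle genes had differences between -1.90 and -0.21 (median -0.60, or -0.17 without replicate 3 of the KCl leaves and -0.99 without replicate 1 of the TiO2 leaves), the largest in SBPASE, sedoheptulose bisphosphatase, with 0.21 ± 0.53 in roots, 2.11 ± 0.53 in leaves and an adjusted p of 0.324 for the difference. None of these 3 lists had a member that passed for the difference, and 1 member, SBPASE, had an unadjusted p under 0.05.

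Tubulin genes, which form microtubules, had positive effects in both tissues, with medians of 0.93 in roots and 1.65 in leaves. The root median was -0.19 without the arrays of compressed range, which leaves KCl roots 1 array. The list's median signal was 9.17, 8.08 and 9.31 in TiO2 roots and 6.97, 8.99 and 6.94 in KCl roots, which overlap. Of 7 measured tubulin genes 6 had a difference below 0, with a median of -0.98, but this rested on 1 array: the median was -0.06 without replicate 2 of the KCl roots, which was the highest KCl root array for 6 of the 7. It was -1.58 without replicate 1 of the KCl roots and -0.65 without replicate 3 of the KCl leaves. TUA1, an alpha-tubulin, was the exception, with 8.47, 8.08 and 9.80 in TiO2 roots, against 6.97, 6.09 and 6.94 in KCl roots, and a difference of 1.15 ± 0.55. TUB6, a beta-tubulin, had a difference of -1.28 ± 0.81. Neither passed. The 4 histone H2B genes all had a difference below 0 (median -0.95, or -0.61 without replicate 2 of the KCl leaves). None of them passed or had an unadjusted p under 0.05, and their smallest limma adjusted p was 0.606. The 27 expansin and xyloglucan hydrolase genes, which loosen walls, had 16 below 0 and a median of -0.24, which was 0.06 without replicate 1 of the KCl leaves and -0.46 without replicate 2 of the KCl leaves. EXPA15, an expansin, measured 6.74 on average in TiO2 roots and 8.98 in KCl roots, with a difference of -2.47 ± 1.12 (adjusted p = 0.413).

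Glucosinolates are sulphur-containing defence compounds of the cabbage family. All 3 measured synthesis genes of 24 had a difference below 0, with a median of -2.05, and none passed. BCAT4, which starts the methionine route, measured 6.61, 8.21 and 4.97 in TiO2 roots, against 11.33, 9.59 and 8.50 in KCl roots. Its leaf arrays lay between 10.35 and 11.22. It fell in roots by 3.21 ± 0.73 (adjusted p = 0.0239), and its difference was -3.09 ± 1.03 (adjusted p = 0.232). AT2G31790, a glucosyltransferase gene of the same pathway, had a difference of -2.05 ± 0.67 (adjusted p = 0.222).

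Detoxification genes gave small or mixed differences. GSTU23, a tau glutathione transferase, fell in roots by 1.77 ± 0.31 (adjusted p = 0.00535) with a leaf effect of 0.04 ± 0.31, and its difference of -1.81 ± 0.44 had an adjusted p of 0.0912. The 4 measured tau genes had a median of -0.74, or -0.34 without replicate 2 of the TiO2 roots and -0.45 without replicate 1 of the KCl leaves. GR, a glutathione reductase, had effects of -0.82 ± 0.37 in roots and 1.02 ± 0.37 in leaves (difference -1.84 ± 0.53, adjusted p = 0.156), and 4 of 5 measured antioxidant enzymes were below 0, or 5 of 5 after quantile normalization again and 3 of 5 after centring. Their median was -0.82, or -0.52 without replicate 2 of the KCl roots. Of 47 UDP-glycosyltransferases 33 had a difference above 0, with a median of 0.28 (0.44 without replicate 1 of the TiO2 roots), and 3 of 47 rose in roots (1.25% of all probe sets). UGT87A2 had effects of 2.83 ± 0.62 in roots and -0.03 ± 0.62 in leaves (difference 2.86 ± 0.87, adjusted p = 0.185), and UGT71C5, which glucosylates abscisic acid, had a difference of 1.77 ± 0.48 (adjusted p = 0.136). The 23 cytochrome P450 genes divided into 12 above 0 and 11 below.

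The 7 root markers had a median difference of -0.94, which lay between -0.32 and -1.45 with 1 array left out. LHW, a regulator of root vascular tissue, fell in roots, with 6.95, 6.51 and 5.42 in TiO2 roots, against 8.29, 8.86 and 8.92 in KCl roots (root effect -2.39 ± 0.33, difference -1.89 ± 0.47, adjusted p = 0.0988). PYK10 measured 11.11, 8.80 and 9.60 in TiO2 roots and 10.02, 12.61 and 11.04 in KCl roots, which overlap. Their part in the root-side differences above was not tested. The 3 measured reference genes PEX4, AT4G34270 and AT2G28390 had differences of 0.82, -0.56 and -0.75, none passing. GI, the measured clock gene, had a difference of 0.68 ± 0.47, and the 2 measured iron genes, AT3G13610 and PYE, had 0.17 and 0.08. No member of the phosphate starvation list or of the nitrate and potassium transport list had a named probe set.

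The mean of the root and leaf effects was tested as well, which does not require an effect in both tissues. For the mean effect over roots and leaves 396 probe sets passed (1.74%), 190 higher (0.835%) and 206 lower (0.906%), and 20 of them also passed for the difference. Across all 22746 probe sets the root and leaf effects had a Pearson correlation of 0.21 and a Spearman correlation of 0.22, a description across probe sets that are not independent replicates; the tissues share no arrays. The effects had the same sign for 60.4% of all probe sets and for 398 of the 610 root calls (65.2%). Only 3 probe sets passed in both tissues, all 3 with the same sign, which is 0.492% of the root calls and 6.38% of the leaf calls. Among the 468 probe sets with an unadjusted p under 0.05 in both tissues, 351 had the same sign and 117 opposite signs.

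AT5G22580, a stress-responsive A/B barrel domain gene, rose in both tissues. It measured 7.96, 7.09 and 7.86 in TiO2 roots, against 5.60, 4.75 and 4.53 in KCl roots. It measured 9.91, 10.61 and 10.78 in TiO2 leaves, against 7.96, 6.53 and 6.83 in KCl leaves. No groups overlapped, the mean effect was 3.00 ± 0.37 (adjusted p = 0.00109), and the interval of its difference ran from -2.20 to 0.92. AT5G55450, of the lipid transfer protein family, had a mean effect of 3.40 ± 0.66 (adjusted p = 0.0189), but its effects were 4.86 in roots and 1.94 in leaves and the interval of its difference, 0.13 to 5.69, left out 0 before adjustment (adjusted p = 0.416). COR15A and AT5G54300 rose on average by 3.42 ± 0.75 and 2.95 ± 0.74.

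Among the genes that fell on average, AT5G11930, a glutaredoxin gene, measured 4.50, 7.03 and 5.0 in TiO2 roots and 6.62, 7.21 and 7.95 in KCl roots. It measured 4.81, 4.23 and 4.46 in TiO2 leaves, against 7.62, 7.60 and 7.37 in KCl leaves. Replicate 2 of the TiO2 roots lay within the KCl root range, and the leaf groups were far apart. Its mean effect was -2.39 ± 0.36 (adjusted p = 0.00516) and the interval of its difference ran from -0.23 to 2.80. AT2G41480 (PRX25), a peroxidase, had a mean effect of -2.50 ± 0.57, with -3.37 in roots and -1.63 in leaves. AT1G28070 had -2.29 ± 0.55. One probe set of nad1, a mitochondrial complex I subunit, had -2.24 ± 0.51 (adjusted p = 0.0384) with a difference of 0.05 ± 1.03. With 1 array left out the number of probe sets called for the mean TiO2 effect over both tissues lay between 61 and 847.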

How the data were processed

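The deposited values are log2 signals of ATH1 arrays made by the authors with RMA, per the submitters' processing notes. RMA corrects background, quantile-normalizes arrays and summarises probes. Neither its version nor whether the 24 arrays went through it as one set is given in the sources used here. Labelling used 15 ug of total RNA, per the labels. Of 22746 probe sets, 13513 point to 1 gene in the platform annotation, 503 to several and 8730 to none listed, and 13436 were matched to RefSeq (TAIR10.1) for positions. No sequence was read.

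One model (limma 3.58.1, R 4.3.3) covered all 24 arrays, with 8 group means and 16 residual degrees of freedom. The main contrast was TiO2 minus KCl in roots minus the same in leaves. Both single tissues and their mean were also tested. Tests were two-sided, with Benjamini-Hochberg adjustment over all probe sets and a threshold of 0.05. In simulated data 48 of 100 probe sets with a difference of 2 and 87 of 100 with a difference of 4 were recovered, with 5 false calls. The simulated noise was independent and of equal spread in all groups, without array effects. These counts therefore give no error rate for the calls in the real arrays. Python 3.11.15, pandas 2.3.3 and matplotlib 3.10.9 read tables and drew plots.

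Named genes are the 12 largest passing differences in each direction with 1 gene, up to 6 passing opposite effects, up to 4 passing members of a list or else the 2 with the smallest p, and the 4 largest passing rises and falls of the mean effect. Other genes, including further list members, were chosen after their values were seen. The comparison and the gene lists were chosen with earlier results of these data known. Where several probe sets share a gene, list counts used the brightest. The gene roles given are background knowledge and not part of the files. The labels do not say that replicate numbers pair arrays, so the fit has no block.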

Additional observations from a re-analysis of the deposited data

Results flagged for a closer look

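The following results stand out because the TiO2 effects in roots and in leaves differ by a test of the difference itself, with limma's adjusted p under 0.05. Values are the root effect minus the leaf effect in log2 units. They are above 0 for AT4G26950 (4.17), AT2G34340 (3.83), AT2G39725 (3.73), AT2G43140 (3.63), AT5G51680 (3.52), AT3G07565 (3.04), AT3G19920 (2.51) and AT4G19200 (2.43). They are also above 0 for the probe sets 250662_at (5.98) and 248918_at (4.55), which have no named gene. They are below 0 for ZW9 (-4.17), AT1G66020 (-3.69), AT1G29670 (-3.46), AT3G12710 (-3.41), AT1G31050 (-3.35), AT3G56480 (-2.9), AT2G36430 (-2.8), AT5G01090 (-2.49), AT5G02940 (-2.47), AT1G33440 (-2.33), AT5G14210 (-2.18) and AT5G48360 (-1.93). The probe sets 255812_at (-4.21) and 257137_at (-3.94) are likewise below 0 and unnamed. Single outlying arrays were not sought within groups of 3.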

How the results depend on the processing

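The count of probe sets that passed for the TiO2 effect in roots minus TiO2 effect in leaves, 47 in the fit reported, was 24 in a fit of only the 12 TiO2 and KCl arrays (11 shared with the 47), 26 when only probe sets with a mean above the median were tested, 152 without the arrays of narrow range (22 shared) and 4147 with arrayWeights, whose iteration stopped before it converged, at weights from 0.302 to 9.81. With 1 array left out it lay between 2 and 201. The narrow arrays, with a lower quartile above 3.7, are 6 of the 24 and 4 of the 12; without them KCl roots keep 1 array, whose spread is taken from the remaining groups. Quantile normalization again (57), centring on medians (49) and a trended robust variance (43) kept it within 1.5 times. Centring moved the median difference by 0.18 and the split of higher and lower calls to 34 and 15, from 21 and 26. Same-numbered TiO2 and KCl arrays had correlations of their deviations from the group means between -0.45 and 0.05, and same-numbered root and leaf arrays between -0.16 and 0.14. Not every pair exceeded 0.1, so the numbers were not used as pairs, which does not show that the plants were different. With the number as a replicate block 31 probe sets passed (26 shared), and with a replicate block of treatment and number 11 passed. For the TiO2 effect in roots the count of 610 was 401 with the filter, 336 without the narrow arrays, 7295 with arrayWeights and 114 to 1077 with 1 array left out, and centring gave 327 higher and 202 lower (284 and 326 in the fit reported). For the TiO2 effect in leaves the count of 47 was 17 with the filter, 118 with the trended robust variance, 2578 with arrayWeights and 1 to 376 with 1 array left out. For the mean TiO2 effect over both tissues the count of 396 was 124 without the narrow arrays, 6768 with arrayWeights and 61 to 847 with 1 array left out. The cause of these moves was not tested, apart from the filter, which tests fewer probe sets. No difference of the 24 genes and probe sets above changed sign. AT1G66020 and ZW9 passed in every setting that gave a value, 20 and 21. Of the 24, 7 passed in the fit of only 12 arrays, 17 with the number block, 9 with the block of treatment and number, 16 without the narrow arrays, 11 with the filter (2 lost, the others not tested), 22 after quantile normalization again, 20 after centring, 20 with the trended robust variance and 24 with arrayWeights. Of the 24, 2 passed without TiO2 leaves 2 or without TiO2 leaves 3, 3 without TiO2 roots 3, 7 without KCl leaves 3, 8 without KCl roots 2, 10 without TiO2 roots 1 or without KCl leaves 1, 11 without KCl roots 3, 15 without KCl leaves 2, 21 without KCl roots 1, 23 without TiO2 leaves 1 and 24 without TiO2 roots 2. Of 503 list medians under alternatives 481 kept their sign and 22 changed it. The changes were in lists whose median lay near 0 or, once, in the tau glutathione transferases (0.17 with arrayWeights). A kept sign is not a kept size. Without the narrow arrays the tubulin median was -2.54 (-0.98 in the fit reported) and the cold and abscisic acid median 3.60 (2.42).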
